A study of Mus musculus with 6 samples.

Results

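Cytoplasmic ribosomal protein genes encode the proteins of the ribosome that translates nuclear mRNAs. They were taken as the protein-coding genes whose mouse symbol is Rpl or Rps followed by a number, plus Rpsa, Rplp0, Rplp1 and Rplp2, without Rps7 and the S6 kinase genes. The rule found 81 genes among the 36793 gene identifiers of the table, 50 of the large (60S) subunit and 31 of the small (40S) subunit. The rule reads symbols and gene type and no measured level, but it was set with earlier results of these data known. The bulk mRNA libraries came from lumbar dorsal root ganglia (L3-L4) of 3 mice labelled NMDA-R knockout, numbered 4 to 6 (KO), and of 3 wild-type mice, numbered 1 to 3 (WT). The series title puts the deleted gene, which encodes the GluN1 subunit (Grin1), in Schwann cells. The sources used here give no Cre driver, strain, age, sex or litter. The labels call the cell type Schwann cells, but the tissue is whole ganglion, and the 10 sensory neuron markers read here summed to 14960 to 23810 TPM (transcript abundance scaled to a fixed total per library), against 5975 to 7748 TPM for the 9 Schwann cell markers.

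Total expected counts, the estimated reads per gene, were highest in KO 5 at 36249163 and lowest in WT 3 at 28526704. Libraries were compared in pairs over the 10258 genes with whole counts in all libraries and a mean of at least 20. KO 5 and KO 6 differed in 0 of these genes at an FDR of 0.05, with a mean chi-square of 1.15 per gene, against 3382 to 7317 genes and 13.2 to 104.0 in the other 14 pairs. Sampling noise alone gives a mean of about 1, so over these genes KO 5 and KO 6 were close to that noise. They were counted as 1 sample, so KO has n = 2 and WT n = 3. Genes whose reads the quantifier divides between similar transcripts were outside this check and could differ more, as for Rpl10 with 1415 counts in KO 6 and 1947 in KO 5. Grin1, the targeted gene, had 46.2, 65.8 and 69.7 TPM in KO 4, 5 and 6, against 38.8, 63.7 and 42.6 TPM in WT 1, 2 and 3. Its log2 fold change was 0.21 ± 0.26 (SE), with an adjusted p of 0.812 in edgeR's quasi-likelihood test, so whole-ganglion Grin1 did not separate the genotypes. The labels number the mice but do not say how they were chosen, and p-values measure only the spread between these samples.

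As background, each cytoplasmic ribosome holds 1 copy of nearly every ribosomal protein, and cells make these proteins at a high and matched rate. Their mRNAs begin with a tract of pyrimidines, the 5' terminal oligopyrimidine (TOP) tract, through which mTORC1 and the binding protein LARP1 control their translation. Their genes are also the richest source of processed pseudogenes in mammalian genomes, intronless copies inserted from reverse-transcribed mRNA. In sensory neurons, ribosomes are found in axons as well as in the cell body, and some ribosomal protein mRNAs are translated there.

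In the deposited table, the levels of the ribosomal protein genes were spread widely. Rplp1, an acidic protein of the ribosomal stalk that recruits elongation factors, was the highest at a mean of 1185 TPM over the 6 libraries. Rpl41, among the smallest ribosomal proteins, averaged 1081 TPM, Rpl13a averaged 1033 TPM, Rpl7 averaged 928 TPM and Rpl26 averaged 891 TPM. At the other end, Rps27 averaged 7.95 TPM, Rps6 averaged 8.19 TPM, Rps29 averaged 11.0 TPM and Rps13 averaged 17.4 TPM, although each of these proteins is a core part of the small subunit. Among the 75 genes that are not "-like" paralogs, the 10th to 90th percentile ran over a ratio of 14.1, and 8 genes lay under 50 TPM.

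Near-identical copies elsewhere in the genome held over 80% of the counts of all 8 of these low genes. A copy was another annotated gene whose transcript aligned over at least 80% of its length to a ribosomal protein transcript at 90% identity or more. There were 671 such copies, of which 657 were annotated as processed pseudogenes and 10 as protein coding, and 75 of the 81 genes had at least 1. Copies held 24.0 to 24.2% of the counts of gene and copies together in the KO libraries and 24.3 to 24.9% in the WT libraries. Over the 6 libraries, they held over 80% of the family's counts for 11 genes, over 50% for 19 genes and under 10% for 49 genes. Rps6, the small-subunit protein phosphorylated by the S6 kinases, had 7.83, 8.39 and 10.7 TPM in KO 4, 5 and 6, against 5.61, 7.02 and 9.63 TPM in WT 1, 2 and 3. Its intronless copy Rps6-ps4 had 755, 631 and 648 TPM in KO 4, 5 and 6, against 956, 800.2 and 821 TPM in WT 1, 2 and 3. Copies of Rps6 thus held 98.6% of the family's counts.

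The coding sequences show how close these pairs are. The stretches below are 75 bases, about the mean read length of 75.1 to 75.2 bases that the deposited effective lengths give. For Rps6 the first stretch with identical letters in gene and copy is shown. For contrast, the Rps23 stretch is the one with the most mismatches to its copy, and the pair differs at the bases in capitals. They were read from GENCODE vM21 transcripts on GRCm38, 5' to 3' on the strand of the gene. Rps6 lies at chr4:86856785-86856859 (minus strand, exon 2), and Rps6-ps4 at chr2:75191742-75191816 (minus strand). Rps23 lies at chr13:90924326-90924400 (plus strand, exon 3), and its copy Gm9701 at chr3:62923995-62924069 (minus strand).
Rps6: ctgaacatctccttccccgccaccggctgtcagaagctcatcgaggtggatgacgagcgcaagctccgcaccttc
Rps6-ps4: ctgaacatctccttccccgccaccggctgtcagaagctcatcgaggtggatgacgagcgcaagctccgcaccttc
Rps23: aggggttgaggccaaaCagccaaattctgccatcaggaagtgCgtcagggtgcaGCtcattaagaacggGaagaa
Gm9701: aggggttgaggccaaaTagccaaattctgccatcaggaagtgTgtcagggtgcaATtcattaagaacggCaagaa
The Rps6 stretch was identical in gene and copy, while the Rps23 stretch had 5 mismatches and 70 identical bases. The whole Rps23 copy was 96.97% identical to the gene. Of all 75-base stretches of the Rps23 coding sequence, 86.5% occurred unchanged in another annotated gene, so the stretch shown is not typical. Over the 6 libraries, Gm9701 had a mean of 616 TPM beside 123 TPM for Rps23.

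The genes with most counts in copies were those that share their coding sequence. For 20 genes every 75-base word of the coding sequence also occurred in another annotated gene, and in 16 of these the copies held over 50% of the counts. Rpl17 was the 1 gene of the 20 with under 10%, at 6.23%. Of the 27 genes with under 50% of words shared, 0 had over 50% of counts in copies, and the highest was Rpl41 at 6.22%. In 10 genes, among them Rpl4, Rpl8, Rps3 and Rps9, no word was shared. Only 8 of the 81 genes had whole expected counts in all 6 libraries (tolerance 1e-09), since the quantifier divides reads that match several transcripts. Whether reads counted for a copy came from the gene or from the copy was not tested, and the 2 cannot be told apart where the sequences are identical.

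**Figure D1:**
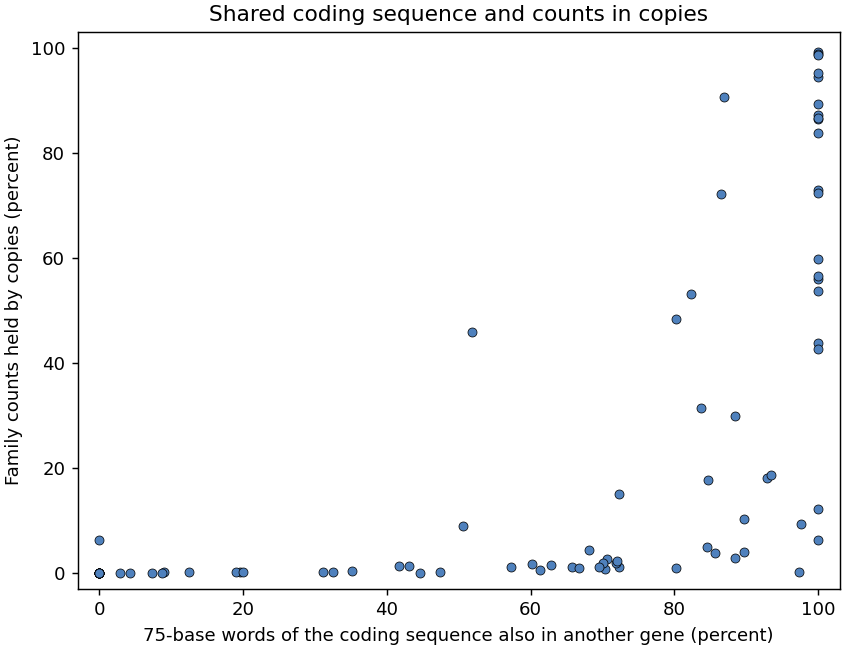
Each point is 1 ribosomal protein gene with counts. The x axis gives the percent of its 75-base coding words that also occur in another annotated gene, and the y axis gives the percent of the family's counts, over 6 libraries, held by near-identical copies. The points over 50% on the y axis lie in the right part of the x axis, and genes with under 50% of words shared reach at most 6.22%.

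When copies were added to their gene, the levels drew together. The 10th to 90th percentile of the 75 genes then spanned 418 to 865 TPM, a ratio of 2.07, against 51.4 to 722 TPM as deposited, and 0 genes lay under 50 TPM. The median was 585 TPM with copies, against 463 TPM as deposited. Rps29, a small zinc-binding protein of the 40S subunit, was then the highest, with a mean of 1506 TPM, nearly all of it from the copy Gm14303 at 1493 TPM. TPM scales each gene or copy by its own transcript length. In KO 4 the Rps29 gene had 68.07 counts and 15.1 TPM, while gene and copies together had 4333 counts and 1606 TPM. The rank of Rps29 thus depends on the annotated lengths, and levels on a common length were not tested. The merged family of Rps6 averaged 780 TPM, that of Rps27 averaged 679 TPM and that of Rps13 averaged 417 TPM. This merging was chosen after the data were seen, and the merged value is the level of a family, not of 1 locus.

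**Figure D2:**
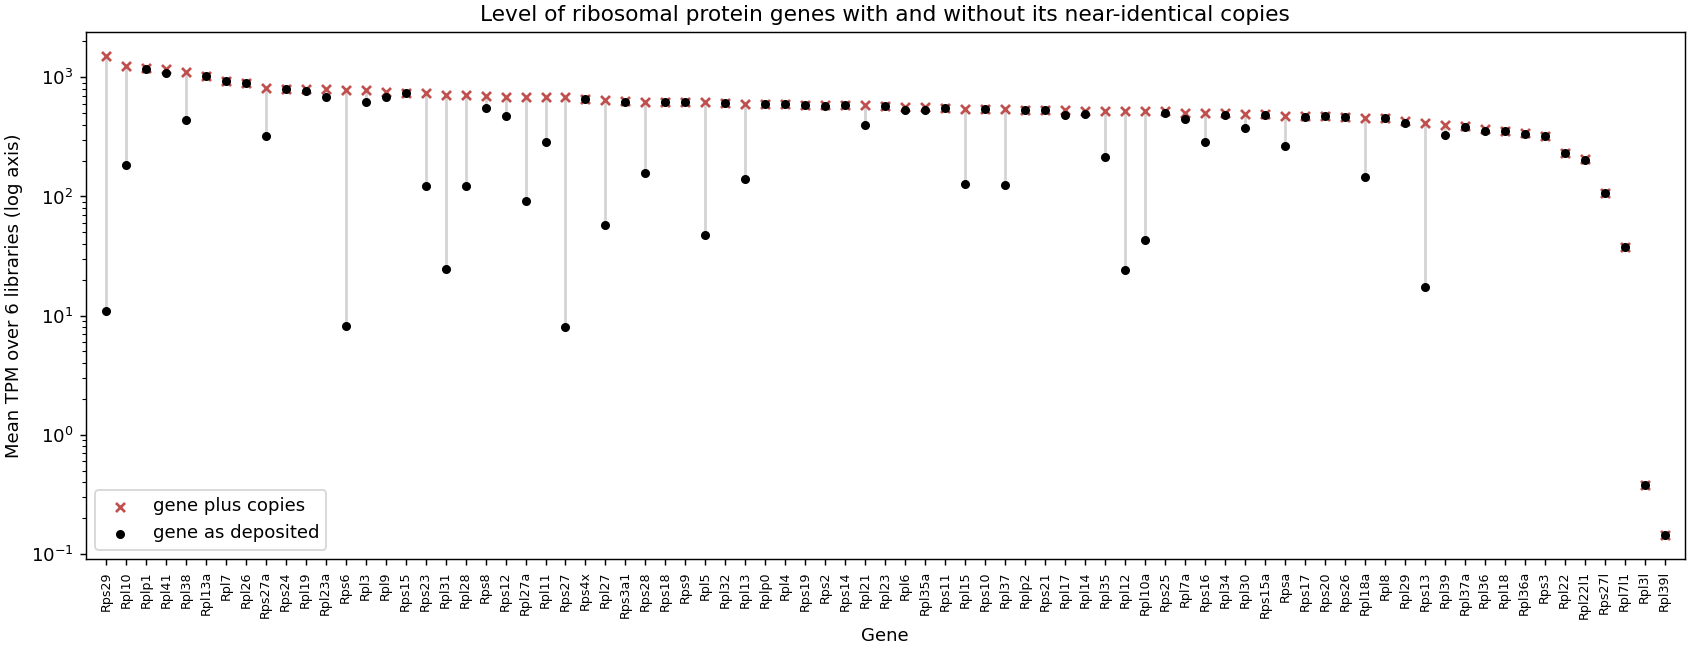
Mean TPM over the 6 libraries, on a log axis, for genes with a level above 0 (1 gene is not shown), ordered by the level of gene plus copies. Black points are the gene as deposited and red crosses are the gene plus its near-identical copies, joined by a grey line. The crosses of most genes lie between 418 and 865 TPM, while the black points of Rps6, Rps27, Rps29 and Rps13 lie between 7.95 and 17.4 TPM.

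Between genotypes, most ribosomal protein genes had slightly lower values in KO ganglia, but 0 of them passed the test across all genes. Of 79 genes that passed the low-count filter, 72 had a log2 fold change below 0, where 49.8% of all 16810 genes tested did. The median was -0.27, a ratio of 0.831, beside 0.00 over all genes tested, and the 10th to 90th percentile ran from -0.37 to -0.08. In edgeR's quasi-likelihood test with Benjamini-Hochberg adjustment over all genes, 0 of the 79 were called higher, where 0.0595% of all genes were, and 0 lower, where 0.0357% were. In all 16 genes were called, 0.0952% of those tested. At an unadjusted p under 0.05 there were 4 ribosomal protein genes, Rps13, Rpl36a, Rpl21 and Rps3a1, that is 4 of 79 beside 9.16% of all genes tested. DESeq2, limma-voom and limma on log2(TPM + 1) also called 0 of them. The lowest adjusted p was 0.324, for Rps13.

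Both KO samples lay below all 3 WT samples for 35 of the 79 genes, against a background of 15.5%, and above them for 1 gene, Rps13, against 11.8%. The 48 genes of the 60S subunit had a median log2 fold change of -0.25 with 44 below 0, and the 31 of the 40S subunit had -0.30 with 28 below 0. The genes are not independent replicates of a condition, and no p is given for the set. With the 6 libraries entered as separate samples, which counts the near-identical pair as 2 animals, 49 of 78 genes had an unadjusted p under 0.05 against 18.9% of all genes. Their median was then -0.33, still with 0 called, where 0.871% of all genes were, and a lowest adjusted p of 0.0935 by edgeR.

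The library values show in which libraries the values were lower. Ribosomal protein genes took 3.29, 2.71 and 2.70% of all TPM in KO 4, 5 and 6, against 4.00, 3.33 and 3.52% in WT 1, 2 and 3. The mean share was 3.00 ± 0.415% in KO (SD, n = 2) and 3.61 ± 0.346% in WT (SD, n = 3), a difference of -0.617 percentage points. KO 4 lay just below the lowest WT library, while KO 5 and KO 6 lay well below it. The median deviation of the genes from the WT mean was -0.11, -0.43 and -0.47 on the log2 scale in KO 4, 5 and 6, against 0.16, -0.09 and -0.05 in WT 1, 2 and 3. KO 4 thus sat beside WT 2 by this measure. Of 78 genes, 73 had their lowest value in KO 5 or KO 6, and 66 had their highest in WT 1. The same counts over all genes were not made, so they do not show a trait of these genes. KO 5 and KO 6 are also 2 near-identical libraries counted as 1 sample.

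Leaving out libraries changed the size of the shift but not its direction. Without KO 5 and 6 the median log2 fold change was -0.11, and without KO 4 it was -0.44. Without WT 1 it was -0.18. The transcripts are short, with a median length of 644 bases against 2471 for all genes tested, and a fit with a transcript-length offset per sample gave -0.16.

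**Figure D3:**
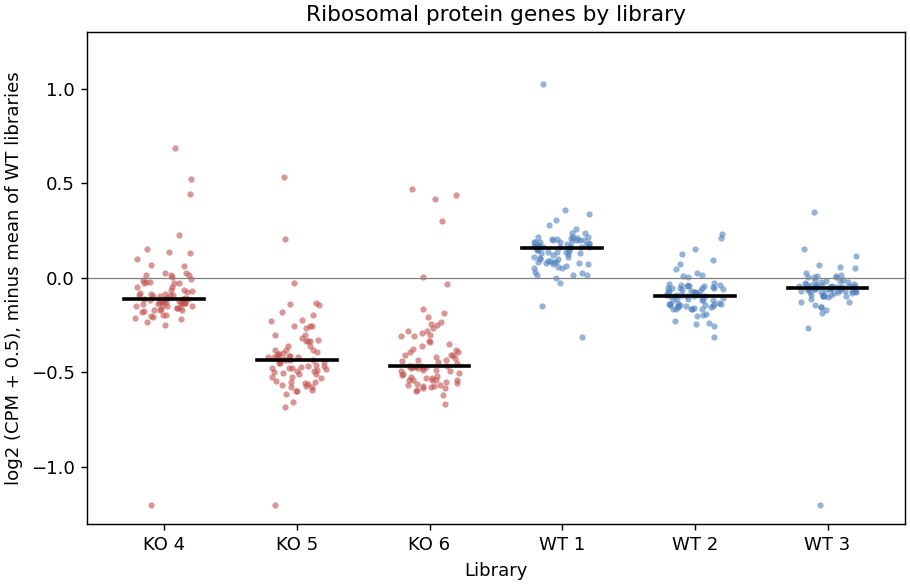
Each point is 1 of 78 ribosomal protein genes in 1 library, as log2(CPM + 0.5) minus the mean of the WT libraries, with the median as a black bar. Medians lie at -0.43 and -0.47 in KO 5 and 6, and at -0.11 in KO 4, beside 0.16, -0.09 and -0.05 in WT 1, 2 and 3. The point at the lower edge in KO 4, KO 5 and WT 3 is Rps27, listed at 0 there and drawn at the limit of the axis.

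Cell type markers also differed between the libraries. Those of sensory neurons summed to 18350, 23760 and 23810 TPM in KO 4, 5 and 6, against 14960, 20620 and 16910 TPM in WT 1, 2 and 3. None of the 10 was at 0, 7 of them were higher in KO, and 0 were called by edgeR. Within each genotype, the order of this sum was the reverse of that of the ribosomal protein share, with only 2 KO samples to order. Across genotypes it was not in every case, since WT 2 had a higher sum than KO 4 and also a higher share, 3.33 against 3.29%. WT 1 had the lowest neuronal sum and the highest share, and KO 5 and 6 had the highest sums and the lowest shares. The order within genotypes did not hold for every marker. Tubb3, Prph, Nefl, Nefm, Nefh, Uchl1 and Rbfox3 were lowest in WT 1 and in KO 4 within their genotypes. Isl1 was instead highest in WT 1 and in KO 4, as the share was. Elavl4 was lowest in WT 2 among the WT libraries, and Snap25 in WT 3. Schwann cell markers summed to 7505 to 7748 TPM in KO and 5975 to 6805 TPM in WT, with 9 of 9 higher in KO and 0 called. Satellite glia markers summed to 866 to 898 TPM in KO and 691 to 839 TPM in WT, with 3 of 3 higher. Endothelial markers summed to 43.7 to 47.7 TPM in KO and 33.0 to 35.0 TPM in WT, with 4 of 4 higher. The sums did not overlap, but Pecam1, Cldn5 and Cdh5 each overlapped between the groups. Fibroblast markers summed to 668, 542 and 535 TPM in KO 4, 5 and 6, against 843, 604 and 758 TPM in WT 1, 2 and 3. Within each genotype, the fibroblast sum had the same order as the ribosomal protein share. Most of that sum was Dcn, and 2 of the 5, Col1a1 and Col1a2, had higher values in KO, without overlap. Of all genes tested, 11.8% had both KO samples above all 3 WT samples. Macrophage markers summed to 25.2 to 33.9 TPM in KO and 28.0 to 36.4 TPM in WT, with 1 of 5 higher. Among the WT libraries the macrophage sum also had the order of the share, highest in WT 1 and lowest in WT 2. In each of these lists 0 markers were called and none was at 0. Erythroid markers reached 59730 TPM in KO 4, against 16410 to 16450 TPM in KO 5 and 6 and 12740 to 24470 TPM in WT. With these left out of the total, the share was 3.50, 2.75 and 2.74% in KO 4, 5 and 6, against 4.06, 3.37 and 3.61% in WT 1, 2 and 3, so that KO 4 lay above WT 2. The part of neuronal, glial, vascular, fibroblast or blood content in the result was not tested, and in bulk tissue fewer cells of a type and less RNA per cell cannot be told apart.

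Among the 60S genes, Rpl36a, whose protein lies near the exit site for tRNA, had the lowest unadjusted p on the lower side. It had 313, 272 and 274 TPM in KO 4, 5 and 6, against 428, 352 and 363 TPM in WT 1, 2 and 3, and the groups did not overlap. Its log2 fold change was -0.37 ± 0.13 (SE) with an adjusted p of 0.498 in edgeR's quasi-likelihood test, and its copies held 1.33% of the counts. Rpl22l1, a paralog of Rpl22, had 197, 159 and 159 TPM in KO 4, 5 and 6, against 280.2, 201 and 226 TPM in WT 1, 2 and 3. Its log2 fold change of -0.40 ± 0.18 (SE) was the lowest of the 60S genes, with a narrow gap between KO 4 and WT 2. Rpl37 had a log2 fold change of -0.37 ± 0.16 and Rpl21, chosen after its values were seen, -0.31 ± 0.13 (SE), both without overlap between groups. None of these passed the adjustment over all genes.

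The 60S stalk binds the translation elongation factors. Rplp1 had 1214, 969.6 and 963 TPM in KO 4, 5 and 6, against 1419, 1255 and 1292 TPM in WT 1, 2 and 3, a log2 fold change of -0.27 ± 0.15 (SE). Rplp0, the base of the stalk, averaged 586 ± 67.2 TPM in KO (SD, n = 2) and 622 ± 57.0 TPM in WT (SD, n = 3), with KO 4 level with WT 3. Rplp2, the partner of Rplp1, averaged 515 ± 41.0 TPM in KO and 545 ± 46.3 TPM in WT. Log2 fold changes were -0.09 ± 0.13 for Rplp0 and -0.07 ± 0.12 for Rplp2 (SE), within the spread between samples. Rplp0 was above 0 without KO 5 and 6 (0.06), and Rplp2 was above 0 with the length offset (0.09) and without WT 2 (0.01). Rpl41 likewise had -0.11 ± 0.16, and Rpl13a had -0.26, Rpl26 had -0.33 and Rpl7 had -0.28.

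Among the 40S genes, Rps3a1 had 603, 497 and 491 TPM in KO 4, 5 and 6, against 804, 651 and 682 TPM in WT 1, 2 and 3. The groups did not overlap, and the log2 fold change was -0.37 ± 0.15 (SE) with an adjusted p of 0.544 in edgeR's quasi-likelihood test. Rps3a1 was chosen after its values were seen. Rps23, which lies at the decoding centre, had 118, 94.5 and 99.96 TPM in KO 4, 5 and 6, against 164, 126 and 136 TPM in WT 1, 2 and 3. Its log2 fold change was -0.39 ± 0.17 (SE), and -0.38 with its copies added. Rps28 had a log2 fold change of -0.39 ± 0.17 (SE), and -0.27 with copies added. Rps27a, which is made as a fusion with ubiquitin, had 301, 263 and 269.8 TPM in KO 4, 5 and 6, against 443, 316 and 347 TPM in WT 1, 2 and 3, a log2 fold change of -0.37 ± 0.17 (SE). Rpsa, first described as a laminin receptor, had 279, 229 and 222 TPM in KO 4, 5 and 6, against 295, 269 and 283 TPM in WT 1, 2 and 3. KO 4 lay within the WT range of Rpsa, and the log2 fold change was -0.16 ± 0.14 (SE).

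Of the 79 genes, 7 had a log2 fold change above 0, and 6 of these had over 80% of their counts in copies: Rps13, Rps29, Rps6, Rpl12, Rpl10a and Rpl28. The other was Rpl3l. Rps13, a core 40S protein, had 22.7, 21.1 and 19.5 TPM in KO 4, 5 and 6, against 14.0, 12.9 and 14.1 TPM in WT 1, 2 and 3. All KO libraries lay above all WT libraries, and its log2 fold change was 0.66 ± 0.16 (SE), the largest on the higher side, with an adjusted p of 0.324 in edgeR's quasi-likelihood test. Its intronless copy Rps13-ps2 had 404, 351 and 338 TPM in KO 4, 5 and 6, against 465, 415 and 412 TPM in WT 1, 2 and 3. A coding stretch of Rps13, at chr7:116333700-116333774 (minus strand, exon 3), and of the copy, at chr7:88530752-88530826 (minus strand), both GRCm38 from GENCODE vM21, shows that the pair is identical there.
Rps13: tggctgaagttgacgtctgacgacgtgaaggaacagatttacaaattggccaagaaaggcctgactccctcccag
Rps13-ps2: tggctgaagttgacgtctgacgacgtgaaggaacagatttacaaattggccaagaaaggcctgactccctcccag
With the copies added, the family had 429, 373 and 361 TPM in KO 4, 5 and 6, against 481, 429.8 and 427 TPM in WT 1, 2 and 3. The log2 fold change of the family was -0.14 ± 0.14 (SE), with an adjusted p of 0.757 in edgeR's quasi-likelihood test. KO 4 then lay among the WT libraries.

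The other 5 genes changed sign likewise. With copies added, log2 fold changes were -0.23 for Rps29 (0.37 as deposited), -0.28 for Rps6 (0.26), -0.19 for Rpl12 (0.13), -0.24 for Rpl10a (0.03) and -0.17 for Rpl28 (0.02). Rps27 had the lowest value as deposited, -1.58 ± 1.38 (SE), with 0, 0 and 13.8 TPM in KO 4, 5 and 6, against 23.4, 10.6 and 0 TPM in WT 1, 2 and 3. With its copies, chiefly the protein-coding Rps27rt, it had 661, 526 and 518 TPM in KO 4, 5 and 6, against 955, 667 and 749 TPM in WT 1, 2 and 3, and a log2 fold change of -0.40. Over all families, 78 of 79 were then below 0 against 48.2% of all genes, with a median of -0.26 against 0.01. Both KO samples lay below all 3 WT samples for 19 of 79 families against a background of 13.4%, and 0 were called by edgeR while 18 genes in all were, 0.108% of those tested. At an unadjusted p under 0.05 there was 1 family of 79, beside 1536 of all 16696 genes tested in the merged fit. In the fit without merging, 91 of 114 copies tested were below 0 and 23 above, where 49.8% of all genes were below 0. Their median was -0.26 and 0 were called, where 0.0952% of all genes were. The 42 copies with a mean of at least 100 counts had a median log2 fold change of -0.27, with 40 of them below 0 and 0 called. Where sequences are identical, the reads of copies cannot be told apart from those of the genes, so the copies are not a separate measure.

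**Figure D4:**
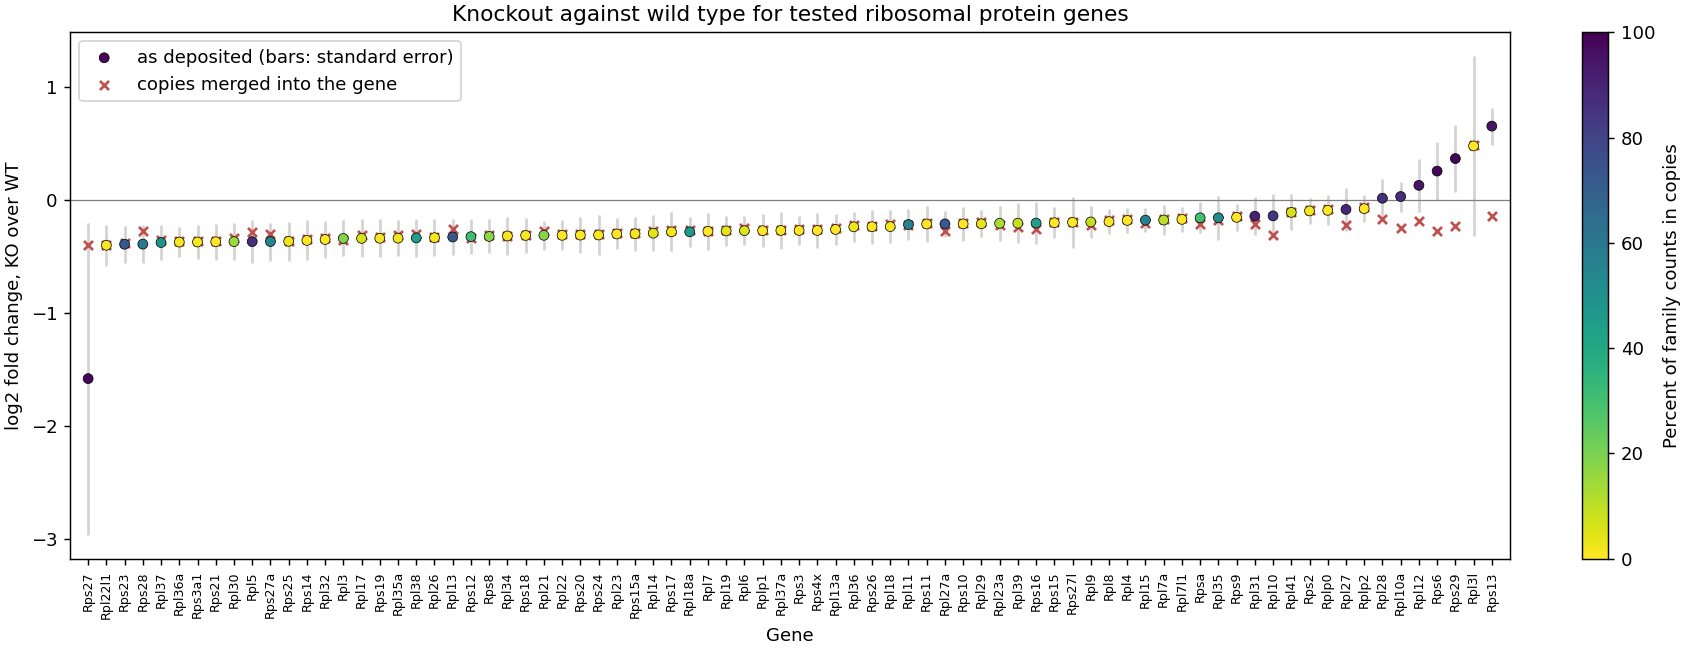
Log2 fold change, KO over WT (n = 2 and 3), for 78 of the 79 genes tested, in rank order. Points are the genes as deposited, with their standard errors as bars and coloured by the percent of family counts in copies, and red crosses are the gene with its copies merged. Genes at the right end above 0 are dark (over 80% in copies) apart from Rpl3l, and their crosses lie below 0.

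The "-like" paralogs, duplicated genes that can replace a standard protein in some tissues, ranged from abundant to absent. Rpl22l1 averaged 204 TPM beside 233 TPM for Rpl22, which had a log2 fold change of -0.31 ± 0.13 (SE), close to the -0.40 of Rpl22l1. Rps27l, which is induced by p53, averaged 107 TPM, with 112, 88.9 and 92.5 TPM in KO 4, 5 and 6, against 148, 90.3 and 112 TPM in WT 1, 2 and 3. The groups overlapped. Rpl7l1, which acts in the nucleolus, averaged 37.8 TPM beside 928 TPM for Rpl7, and its log2 fold change was -0.17 ± 0.11 (SE). Rpl3l, the form of heart and skeletal muscle, had 0.67, 0.36 and 0.27 TPM in KO 4, 5 and 6, against 0.67, 0.21 and 0.08 TPM in WT 1, 2 and 3, that is 1 to 11 counts, beside a mean of 620.1 TPM for Rpl3. Markers of skeletal muscle summed to 59.3, 5.54 and 6.72 TPM in the same KO libraries, against 20.02, 5.24 and 13.4 TPM in WT, with 6 of 6 higher in KO and none at 0 in every library. Their part in the Rpl3l value was not tested. Rpl39l, known from testis, had at most 2 counts in any library and was not tested, beside a mean of 329.9 TPM for Rpl39. Rpl10l, also known from testis, was listed at 0 in all 6 libraries, beside 183 TPM for Rpl10.

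The promoters held the pyrimidine tract known for the family more often than promoters as a whole. RefSeq promoters on GRCm38.p6 (250 bases before to 50 after the start) were matched for 61 of the 81 genes, 73 promoters in all. A pyrimidine tract, a C followed by C or T for at least 5 bases in all, began exactly at the annotated start in 13 of 73, or 17.8%, against 2.51% of 32851 promoters. Allowing 5 bases on either side, it was found in 42.5% against 18.3%. The letters CCGGAAG, on either strand, were in 35.6% against 8.86%, AAGATGGC in 11.0% against 2.75%, and TATAAA in 9.59% against 13.6%. These matches are a description of the letters and do not show binding. The 3 genes below had the highest mean TPM among those with the tract at the start. Each is shown from 40 bases before to 20 after the start, with the tract in capitals: Rps18 at chr17:33955646-33955705 (minus strand), Rps10 at chr17:27635225-27635284 (minus strand) and Rpl35a at chr16:33056442-33056501 (plus strand).
Rps18: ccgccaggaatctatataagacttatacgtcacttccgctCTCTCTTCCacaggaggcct
Rps10: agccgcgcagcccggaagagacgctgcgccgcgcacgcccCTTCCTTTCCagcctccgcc
Rpl35a: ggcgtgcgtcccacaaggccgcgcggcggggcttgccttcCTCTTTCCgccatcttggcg
Rps18, chosen for its tract, had 620.2, 503 and 494 TPM in KO 4, 5 and 6, against 778, 654 and 658 TPM in WT 1, 2 and 3. Rps10 had 569, 448 and 453 TPM in KO 4, 5 and 6, against 658, 551 and 576 TPM in WT 1, 2 and 3. Rpl35a had 519, 431 and 439 TPM in KO 4, 5 and 6, against 698, 533 and 593 TPM in WT 1, 2 and 3. Log2 fold changes were -0.31 for Rps18, -0.21 for Rps10 and -0.34 for Rpl35a, with 0 of the 3 called.

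Genes that work with the ribosomal proteins were read from lists in the same fit, and 0 of their genes were called in any list. The 4 ribosomal proteins under other symbols were all below 0, with a median log2 fold change of -0.17. Among them Fau, a ubiquitin-like fusion with Rps30, had -0.29 and Rack1, a scaffold on the 40S subunit, had -0.19. Of 16 translation factors with TOP mRNAs, 12 were below 0 with a median of -0.15. Eif3e, a subunit of initiation factor 3, had -0.36 and Naca, of the nascent chain complex, had -0.29, while Eef1d had 0.16 and Pabpc1, the poly(A)-binding protein, had 0.11.

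Lists of the machinery that makes ribosomes, and of its regulators, were read in the same way. Of 34 assembly and rRNA processing factors, 23 were below 0 with a median of -0.09, from Wdr12 at -0.23 and Ltv1 at -0.22 to Grwd1 at 0.29 and Rrp12 at 0.32. Of 14 genes of the RNA polymerase I machinery, which transcribes ribosomal RNA, 9 were below 0 with a median of -0.05. Taf1b had -0.25 and Polr1d had -0.24, while Polr1a had 0.23 and Polr1b had 0.29. Of 17 mTORC1 and Myc regulators, 12 were above 0 with a median of 0.19. Rheb, the activator of mTORC1, had -0.21 and Tsc1, of the complex that inhibits Rheb, had -0.14, while Eif4ebp2, a brake on translation, had 0.37 and Mycl had 0.43. The genes named from these lists had standard errors of 0.10 to 0.28, and none of them passed the adjustment over all genes.

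The mitochondrial ribosomal proteins, which are encoded in the nucleus and translate mitochondrial mRNAs, were also mostly below 0. Of 77, 64 had a log2 fold change below 0 with a median of -0.13 beside -0.27 for the cytoplasmic genes, and 27 had both KO samples below all 3 WT samples against 15.5% of all genes. Mrps33 had 32.5, 31.3 and 31.5 TPM in KO 4, 5 and 6, against 48.5, 41.0 and 45.8 TPM in WT 1, 2 and 3. Its groups did not overlap, and its log2 fold change was -0.50 ± 0.12 (SE) with an adjusted p of 0.306 in edgeR's quasi-likelihood test. Mrpl27 had -0.35 ± 0.12 (SE). Mrpl23 had the highest value, 1.35 ± 0.79 (SE), with 25.5, 11.4 and 2.29 TPM in KO 4, 5 and 6, against 13.2, 2.50 and 2.26 TPM in WT 1, 2 and 3. Its values in KO 5 and KO 6 were far apart, although these libraries were near-identical over the genes with whole counts. Rps27 also differed between them, with 0 and 13.8 TPM. Mrpl43 had a log2 fold change of 0.17.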

How the data were processed

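Bulk mRNA of 6 ganglion samples was read from 1 table. The submitters' processing notes name Trimmomatic 0.38, STAR 2.6.0a, RSEM 1.3.0 and the build GRCm38. Annotation release and strand setting of the counting: not given in the sources used here. In that table the authors deposited expected counts (estimated counts, not normalized), TPM and FPKM, per the file headers, and FPKM was not used. Expected counts were rounded, filtered with filterByExpr, scaled by TMM and tested with the quasi-likelihood test of edgeR 4.0.16 (R 4.3.3), two-sided, genotype only, at an adjusted p of 0.05, with the counts of KO 5 and 6 summed. The test was checked on simulated data. Levels are deposited TPM, averaged for KO 5 and 6 in means. Symbols (35243 matched) and coordinates came from GENCODE vM21, promoters from RefSeq. Copies were found with BLAST 2.17.0, and this step and its fits were chosen after seeing the data. The genes and lists were chosen with earlier results of these data known. Named genes are the 6 highest and 6 lowest log2 fold changes among genes with a mean of at least 1 TPM, the 5 highest levels and the 5 lowest with a count above 0, the stalk, Rpsa, Rps27a, Rps6, the paralog pairs, and the 2 extremes per list in each direction, and others were named after their values were seen. Alternatives used DESeq2 1.42.0, limma 3.58.1, other scalings, filters and offsets, and left out each sample. Rps4l, a paralog of Rps4x, was not analysed here, and 1 gene that entered the counts is not reported here by name.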

Additional observations from a re-analysis of the deposited data

How the results depend on the processing

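Mouse numbers 1 to 6 do not recur across genotypes. No paired analysis was possible because of this. Under 27 settings, the counts of ribosomal protein genes called higher and called lower stayed at 0. Their median log2 fold change stayed below 0, from -0.44 without KO 4 to -0.11 without KO 5 and 6, and from -0.47 to -0.10 for these with copies merged. The difference in their share of TPM ranged from -0.911 to -0.324 percentage points over the left-out samples. Of all genes, 16 were called, against 144 with 6 libraries, 81 with no filter, 255 with DESeq2, 31 with the GC offset and 30 at an FDR of 0.10. With copies merged there were 153 with 6 libraries and 31 with the GC offset. Leaving out samples gave 7 to 14, and 10 to 18 with copies merged.

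Single genes changed sign in 32 of 967 values, and the cause was not tested apart from the merging. Merging copies gave -0.243 for Rpl10a, -0.185 for Rpl12, -0.168 for Rpl28, -0.143 for Rps13, -0.228 for Rps29 and -0.275 for Rps6. Without KO 5 and 6, values were 0.009 for Rpl10, 0.011 for Rpl39, 0.097 for Rpl41, 0.060 for Rplp0, 0.018 for Rpsa, -0.013 for Pabpc1 and -0.093 for Eif4ebp2. Rpl10a was -0.002 with 6 libraries, -0.085 on log2(TPM + 1) and -0.080 with the GC offset. Rpl28 was -0.060, -0.023 and -0.051 under the same settings, -0.018 with KO 6 alone and -0.014 by limma-voom. The length offset gave 0.036 for Rpl41 and 0.089 for Rplp2. With 1 KO sample left, it is assumed to vary like WT. Leaving out any other sample gave -0.299 to 0.070 for Rpl10, -0.067 to 0.121 for Rpl10a, -0.271 to 0.196 for Rpl12, -0.220 to 0.069 for Rpl28, -0.011 to 0.308 for Rpl3l (not tested without WT 1), -0.135 to 0.010 for Rplp2 and -0.387 to 0.027 for Rps27l.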
